A study of Mus musculus with 17 samples.

Results

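The piRNA locus pi-D10Wsu102e is a source of PIWI-interacting RNAs (piRNAs) in the mouse testis that is named for the gene D10Wsu102e, which RefSeq (GRCm38.p6) annotates as a protein-coding gene on chromosome 10. It is 1 of the 214 piRNA loci listed in the deposited count tables, of which 114 are named for a gene and 100 for a chromosome band. The locus was chosen by its counts: it holds the largest part of the counts at gene-named loci in the small RNA libraries of both genotypes, so its abundance and shares are given as a description without a test. The tables list it as 2 entries among 465 for all loci, one of 122736 nt and one of 3488 nt. The longer entry had more counts in every library and stands for the locus unless the shorter one is named. The sources used here do not say what each entry spans in the genome, or whether reads at one were also counted at the other.

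piRNAs are small RNAs cut from long single-stranded precursor transcripts and loaded onto PIWI proteins, which in male germ cells silence transposons. In meiotic spermatocytes most of them, the pachytene piRNAs, come from a limited set of genomic loci, many of them intergenic, while others come from transcripts of protein-coding genes. MAEL (Maelstrom) is a germ cell protein of this pathway, and male mice without it are sterile.

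The series measured testis RNA of the mouse strain 129SvJae, with and without the Mael gene, in 17 libraries, of which the 9 whose tables list piRNA loci are used here. Small RNA of 15 to 50 nt was sequenced from 2 Mael-/- and 2 wild-type testis samples. RNA immunoprecipitation (RIP), in which an antibody pulls down a protein with its bound RNA, was done on wild-type testis. An anti-MAEL antibody gave 1 library of 15 to 50 nt RNA, 1 library of 50 to 150 nt RNA and 2 libraries of long RNA, and rabbit IgG, the control antibody, gave 1 library of long RNA. The small RNA and size-selected libraries were made with a strand-specific kit. The long-RNA libraries were not, so RNA of the locus and antisense RNA cannot be told apart in them. The sources used here give no animal ages and do not say whether replicates came from separate animals. The p-values of the fits below therefore weigh a difference only against the spread between these libraries, and that spread may be technical. All libraries are of whole testis, where fewer cells of a type and less RNA per cell cannot be told apart.

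Library totals were 21887302 and 4832512 counts in Mael-/- small RNA replicates a and b, against 44418162 and 7777204 in wild-type replicates a and b. In the RIP libraries they ranged between 5753425 and 172732406. Transcripts made up 24.6% and 31.6% of counts in Mael-/- small RNA, against 16.8% and 17.5% in wild type, and band-named loci 69.6% and 62.0%, against 79.4% and 78.6%. None of the transcript identifiers matched a symbol in the reference tables (0 matches), so Mael itself and testis cell type markers were not analysed here. Values are given as counts per 1000000 counts of a library (CPM), and as CPM per kb of the entry where levels of different loci are set side by side. Each locus kept 1 entry, chosen separately for small RNA, for long RNA and for each size-selected RIP library.

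Small RNA from pi-D10Wsu102e was abundant in both genotypes. In Mael-/- testis it had 730910 and 171120 counts in replicates a and b, or 33394 and 35410.2 CPM. In wild-type testis it had 742144 and 123652 counts in replicates a and b, or 16708 and 15899 CPM. Both Mael-/- libraries therefore lay above both wild-type libraries on the CPM scale, with means of 34402 ± 1425 CPM in Mael-/- and 16304 ± 572 CPM in wild type (SD, n = 2 each). The anti-MAEL RIP of 15 to 50 nt RNA had 3205895 counts or 18559.9 CPM, and that of 50 to 150 nt RNA 350073 counts or 5076 CPM. Long RNA of the locus had 10683 and 15044 counts in the anti-MAEL libraries, or 1857 and 1383 CPM, against 1585 counts or 203.4 CPM in the IgG library. Both anti-MAEL libraries were above the IgG library.

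**Figure D1:**
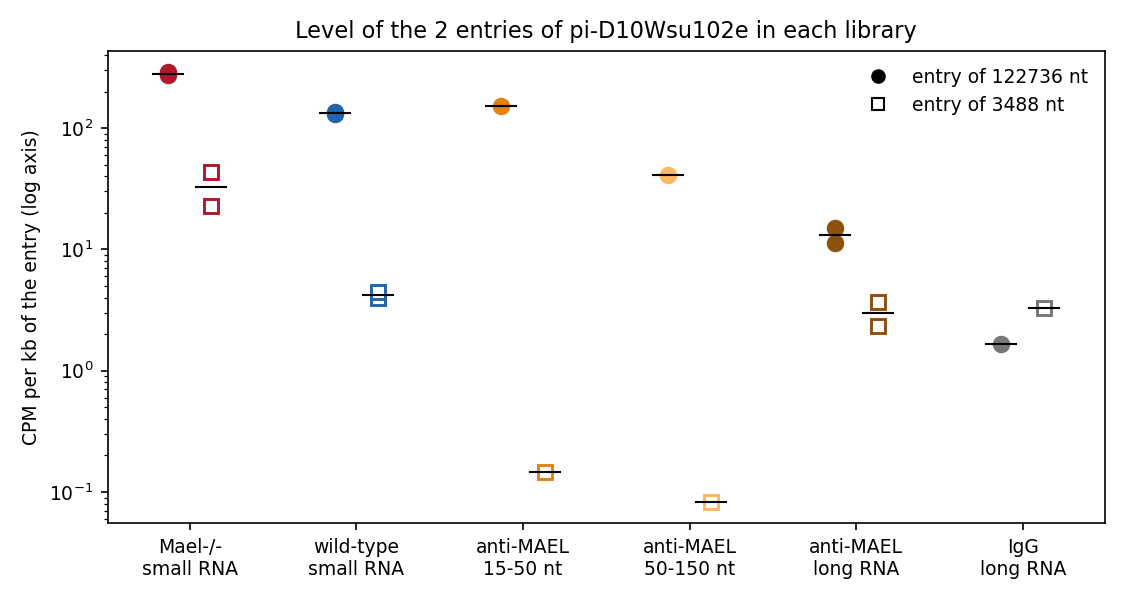
Level of the 2 entries of pi-D10Wsu102e as CPM per kb of the entry (log axis) in each of 9 libraries; points are libraries and bars the group mean. The longer entry (filled circles) lies between 272 and 289 in Mael-/- small RNA and between 130 and 136 in wild type, and only in the IgG library is the shorter entry (open squares) the higher of the pair, at 3.31 against 1.66.

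The locus held 57.1% and 55.2% of the counts at gene-named loci in Mael-/- small RNA, against 43.6% and 41.7% in wild type. Of all counts it held 3.44% ± 0.143 in Mael-/- and 1.63% ± 0.0572 in wild type (SD, n = 2 each). Its share of the counts at gene-named loci was 36.6% in the 15 to 50 nt and 57.1% in the 50 to 150 nt anti-MAEL RIP. In long RNA that share was 20.2% and 14.0% with anti-MAEL, against 3.34% with IgG, where both anti-MAEL libraries were above the IgG library. The long-RNA counts in the IgG library were 0.0203% of that library's total, with an exact (Clopper-Pearson) 95% interval of 0.0194 to 0.0214 that covers counting error only.

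By CPM the locus ranked first among the 114 gene-named loci in 8 libraries and 4th in the IgG library (ranks here describe counts, not levels per length). The gene-named locus with the next most counts had far fewer in small RNA. In Mael-/- libraries this was pi-Ccrn4l, named for the gene of nocturnin, and pi-D10Wsu102e had 15.0 and 13.4 times its CPM in replicates a and b. In wild type the next were pi-Zfp382 in replicate a and pi-Tmem194 in replicate b, exceeded 6.58 and 5.93 times. In long RNA the margin was narrow: pi-D10Wsu102e had 1.85 and 1.08 times the CPM of pi-1700016M24Rik with anti-MAEL, and 0.219 times with IgG. Among all 214 loci it ranked 5th and 4th in Mael-/- replicates a and b, 11th and 12th in wild-type replicates a and b, and 1st in the 15 to 50 nt anti-MAEL RIP.

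The loci around it in the wild-type order of CPM were all band-named. Just above it stood 10-qC1-12816, at 16368 ± 104 CPM, whose 2 libraries lay within the range of those of pi-D10Wsu102e, so the pair cannot be ordered beyond their spread. The next one up, 9-qC-10667, had 19787 ± 647 CPM. Just below it were 7-qD2-11976 with 15136 ± 175 CPM and 2-qG3-1029 with 15075 ± 471 CPM (SD, n = 2 each), and neither these nor 9-qC-10667 overlapped it. In Mael-/- small RNA the order was different, with 34402 CPM at pi-D10Wsu102e against 11720 CPM at 10-qC1-12816, 14281 at 9-qC-10667, 9146 at 7-qD2-11976 and 15475 at 2-qG3-1029.

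Counts are not corrected for length, and the 122736 nt entry is the longest of the 465. The next longest belongs to 3-qA2-617 with 69605 nt, the next longest of a gene-named locus has 46197 nt, and the median longest entry is 7440 nt for gene-named and 14699 nt for band-named loci. The sources used here do not say whether these lengths include introns. Per kb, pi-D10Wsu102e had 280.3 ± 11.6 CPM in Mael-/- and 133 ± 4.66 in wild-type small RNA (SD, n = 2 each). In wild type it then ranked 8th among gene-named loci in both libraries and 63rd and 64th among all loci in replicates a and b, and in Mael-/- 4th and 3rd among gene-named loci and 35th and 29th among all. The median gene-named locus had 11.4 and 15.5 CPM per kb in Mael-/- replicates a and b, against 6.15 and 6.01 in wild-type replicates a and b. The median band-named locus had 129 and 107 CPM per kb in Mael-/- replicates a and b, against 161 and 167 in wild-type replicates a and b. Per kb, then, pi-D10Wsu102e was above the typical gene-named locus in every small RNA library, below the typical band-named locus in wild type and above it in Mael-/-. In long RNA its 15.1 and 11.3 CPM per kb with anti-MAEL, against 1.66 with IgG, ranked 89th and 111th among all loci with anti-MAEL and 172nd with IgG.

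**Figure D2:**
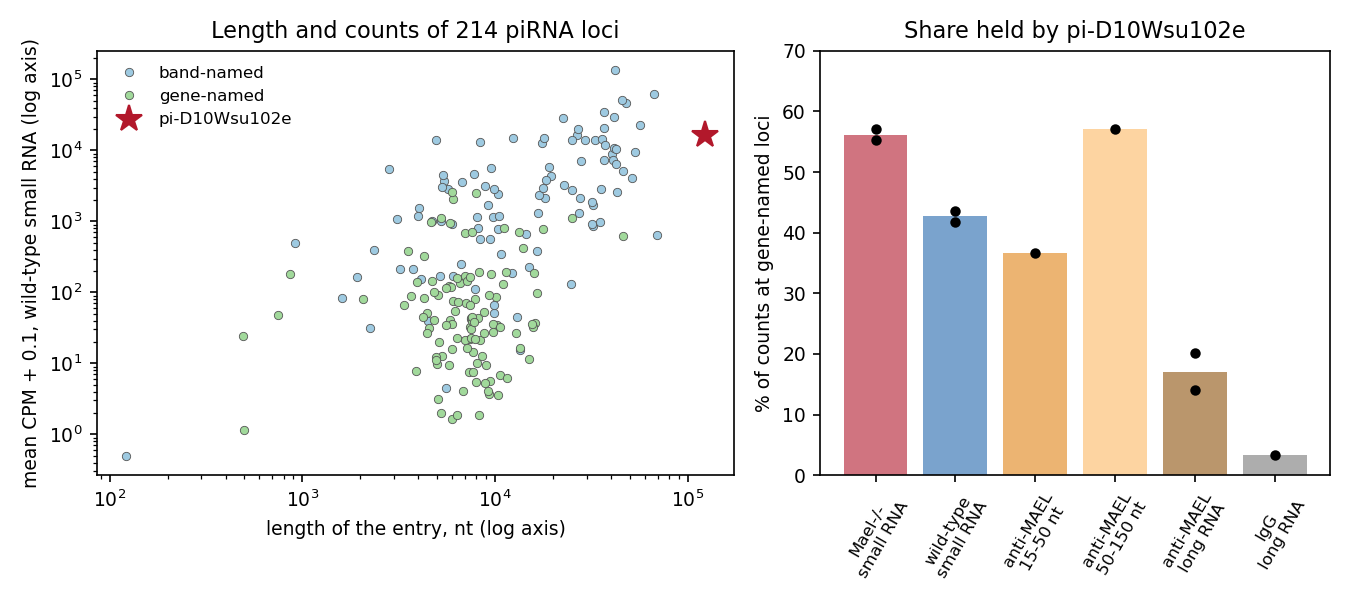
Left, length of the counted entry (nt) against mean CPM + 0.1 in wild-type small RNA for 214 piRNA loci, both axes log, with pi-D10Wsu102e (star) at 122736 nt and 16304 CPM, the longest. Right, share of the counts at gene-named loci held by pi-D10Wsu102e, with bars as group means and points as libraries, from 57.1% in Mael-/- small RNA replicate a to 3.34% in the IgG library.

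The comparison of Mael-/- with wild-type small RNA asks whether loss of MAEL changes the output of the locus, and the answer depended on what the counts were scaled to. On the CPM scale, small RNA of pi-D10Wsu102e was 2.11-fold higher in Mael-/- testis. Relative to most measured features the difference was not larger than its error: with scaling by the trimmed mean of M-values (TMM), which assumes that most features do not differ, the log2 fold change was -0.12 ± 0.625 (SE, 95% interval -1.49 to 1.26) and edgeR's quasi-likelihood test gave an adjusted p of 0.915 over 9906 features. Of those features 3.85% were called higher and 3.54% lower in Mael-/-, at an adjusted p under 0.05, so that 52.1% of the calls were higher, against 39.4% with relative log expression (RLE) size factors, 94.6% with library totals and 95.2% with TMM from the piRNA loci alone. With library totals as the scale, the log2 fold change was 1.08 ± 0.110 (edgeR adjusted p = 0.00214), a call that 24.7% of all features shared in that direction. With TMM factors taken from the piRNA loci alone it was 1.06 ± 0.120 (edgeR adjusted p = 0.000552), where 26.3% of features were called higher. The median of all features was 0.15 with TMM and 1.42 with library totals, so the locus lay 0.26 below the median on the first scale and 0.34 below it on the second.

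The Mael-/- replicates also differed from each other in composition. Their TMM factors were 1.18 and 1.97 in replicates a and b, against 0.579 and 0.743 in wild-type replicates a and b. Without Mael-/- replicate a the log2 fold change was -0.79 (edgeR adjusted p = 0.00387, with 10.3% of features called lower). Without Mael-/- replicate b it was 0.33 (edgeR adjusted p = 0.0472, with 10.3% of features called higher), and without wild-type replicate a it was 0.06 and not called (edgeR adjusted p = 0.995). No direction for the locus relative to all features therefore held across the libraries, and the part of the transcript share in this was not tested.

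**Figure D3:**
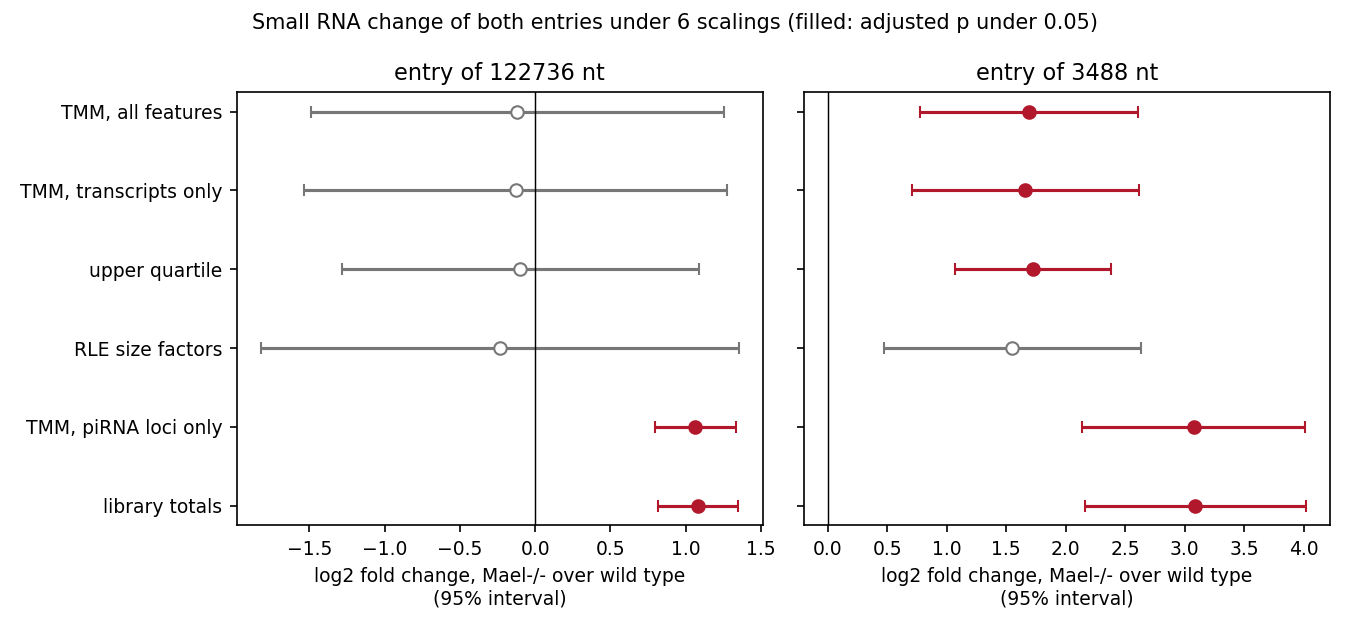
Log2 fold change of Mael-/- over wild-type small RNA with its 95% interval (edgeR) for the longer entry (left) and the shorter entry (right) of pi-D10Wsu102e under 6 scalings; filled red points had an adjusted p under 0.05. The longer entry lies between -0.24 and -0.10 under 4 scalings and at 1.06 and 1.08 under the other 2, and the shorter entry lies above 0 under all 6.

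Ratios within a library do not depend on scaling and show how the locus moved against the summed counts of other piRNA loci. Abundant loci weigh most in such sums. Taken singly, 65 other gene-named loci had a higher Mael-/- over wild-type CPM ratio than pi-D10Wsu102e, and 48 a lower one. For every 100 counts at the other 113 gene-named loci, pi-D10Wsu102e had 133 and 123 in Mael-/- replicates a and b, against 77.4 and 71.6 in wild-type replicates a and b, a 1.72-fold difference. For every 100 counts at band-named loci it had 4.80 and 5.71 in Mael-/- replicates a and b, against 2.10 and 2.02 in wild-type replicates a and b, a 2.54-fold difference. In both ratios the 2 genotypes did not overlap. A two-sided exact permutation test gave p = 0.33 for each (adjusted 0.33), the smallest value that 2 libraries against 2 allow.

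The other piRNA loci gave the setting for these ratios. With TMM, 15 of the other 113 gene-named loci were called higher and 10 lower in Mael-/-, with a median log2 fold change of 0.02, beside 3.85% and 3.54% of all features, and 65 of them had a higher fold change than pi-D10Wsu102e. Of 99 band-named loci tested, 18 were called lower and 0 higher by edgeR, with a median of -1.72. At an unadjusted p under 0.05 by edgeR 3 were higher, beside 2925 of all 9906 features in either direction. DESeq2 called 76 band-named loci lower and 2 higher, and 29 gene-named loci lower and 18 higher, where it called 6.23% of all features lower and 4.37% higher. Of the band-named loci 93 had a lower fold change than pi-D10Wsu102e and 6 a higher one. With library totals 70 gene-named loci were called higher and 12 lower (median 1.26), and 11 band-named loci higher and 46 lower (median -0.57), beside 24.7% of all features called higher and 1.4% lower. On that scale the place of pi-D10Wsu102e between the classes was alike, with 66 gene-named and 5 band-named loci above it. The higher ratio to other gene-named loci stood beside lower mean CPM in Mael-/- at 4 of the 5 gene-named loci with the next most wild-type counts. The Mael-/- over wild-type CPM ratio was 0.604 at pi-Tmem194, 0.639 at pi-Zfp382, 0.530 at pi-Tbl2 and 0.540 at pi-1700006A11Rik, but 2.16 at pi-Ccrn4l. None of these 5 passed edgeR's test with TMM, with adjusted p-values between 0.0516 and 0.911.

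The anti-MAEL and IgG long-RNA libraries ask whether RNA of the locus came down with MAEL. Long RNA of pi-D10Wsu102e averaged 1620.0 ± 335 CPM with anti-MAEL (SD, n = 2), against 203.4 CPM in the single IgG library, a 7.96-fold difference in mean CPM. The log2 fold change with TMM was 3.41 ± 1.04 (SE, 95% interval 1.09 to 5.74), with an unadjusted p of 0.00850 and an adjusted p of 0.228 over 16066 features by edgeR, so it was not called. In that test 1.28% of features were called higher with anti-MAEL. DESeq2 called the locus higher at the same log2 fold change of 3.41 (adjusted p = 4.67e-08, with 2.18% of features called higher). So did edgeR without the filter on low counts, at 3.39 (adjusted p = 0.0198, with 2.49% called higher). Under library totals the value was 2.99, and under TMM from the piRNA loci alone 2.23, neither of them called. With 1 IgG library the spread of the control is assumed to equal that of the anti-MAEL pair.

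Among the 112 other gene-named loci tested 6 were called higher, beside 1.28% of all features. The median log2 fold change of the 112 was 0.24, against 0.02 for all features. Only 2 of them had a larger fold change than pi-D10Wsu102e, pi-BC026590 and pi-Eif2c2, the second named for the gene of Argonaute 2, which are named here after their values were seen. Of the 99 band-named loci 10 were called higher, beside the same 1.28%, the median was 2.33, and 21 were above pi-D10Wsu102e. At an unadjusted p under 0.05 by edgeR, 28 gene-named and 79 band-named loci were higher, beside 1225 of all 16066 features in either direction. DESeq2 called 10 gene-named and 66 band-named loci higher, beside 2.18% of all features. With library totals edgeR called 0 and 2, beside 0.629% of all features. At an unadjusted p under 0.05 these were 5 and 37, beside 485 of all features in either direction. Its value thus lay near the top of the gene-named loci and in the upper part of the band-named ones. On the CPM scale its anti-MAEL over IgG log2 ratio of 2.99 was likewise far above the gene-named median of -0.06, while its Mael-/- over wild-type log2 ratio of 1.08 was below the gene-named median of 1.24. The loci at or above it in both ratios were 3, the band-named 13-qA5-208, 14-qA3-2286 and 3-qA2-617, also named after their values were seen.

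**Figure D4:**
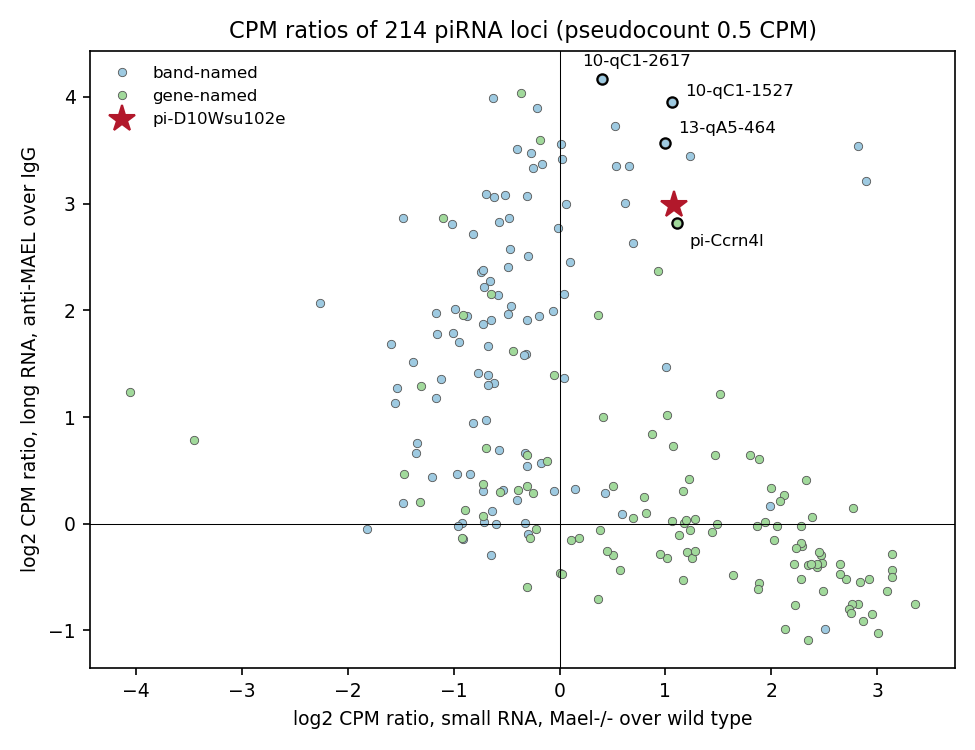
Log2 ratio of mean CPM (with 0.5 CPM added) for 214 piRNA loci, Mael-/- over wild-type small RNA on the x axis and anti-MAEL over IgG long RNA on the y axis; green points are gene-named and blue points band-named loci. pi-D10Wsu102e (star) lies at 1.08 and 2.99, next to pi-Ccrn4l, while the median gene-named locus lies at 1.24 and -0.06 and the median band-named locus at -0.55 and 1.89.

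The size-selected anti-MAEL libraries are single and have no IgG library of their size, so their values are given without a test. In 15 to 50 nt RNA the locus had 18559.9 CPM, close to the 16304 ± 572 CPM of wild-type small RNA made with the same kit and size range (log2 ratio 0.19). The median log2 ratio of the 15 to 50 nt RIP over wild-type small RNA was -1.15 for the other 113 gene-named and -1.69 for the 100 band-named loci, of which 40 and 24 were above pi-D10Wsu102e. In 50 to 150 nt RNA its log2 ratio over wild-type small RNA was -1.68, with class medians of -2.86 and -3.54. Transcripts made up 71.2% of counts in the 15 to 50 nt and 91.9% in the 50 to 150 nt RIP, against 16.8% and 17.5% in wild-type small RNA. For every 100 counts at band-named loci the locus had 8.47 in the 15 to 50 nt and 8.79 in the 50 to 150 nt RIP, against 2.10 and 2.02 in wild-type small RNA. For every 100 counts at the other gene-named loci it had 57.8 in the 15 to 50 nt and 133 in the 50 to 150 nt RIP, against 77.4 and 71.6 in wild-type small RNA. Its ratio to band-named loci was thus above wild-type small RNA in both RIP libraries, and its ratio to other gene-named loci was below it at 15 to 50 nt and above it at 50 to 150 nt. Relative to its own wild-type small RNA CPM, pi-D10Wsu102e had 1.14 times as much in the 15 to 50 nt RIP, and pi-Ccrn4l 5.93 times. The same ratio was far lower at pi-Tmem194 (0.0198), pi-Zfp382 (0.215), pi-Tbl2 (0.0338) and pi-1700006A11Rik (0.0232).

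The shorter entry behaved differently from the longer one. It had 1731 and 728 counts in Mael-/- small RNA replicates a and b, against 618 and 120 in wild-type replicates a and b, or 79.1 and 151 CPM in Mael-/- against 13.9 and 15.4 CPM in wild type. The Mael-/- pair was above the wild-type pair and the more spread of the groups, with means of 115 ± 50.6 and 14.7 ± 1.07 CPM (SD, n = 2 each). With every entry a feature of its own and TMM scaling, the log2 fold change was 1.69 ± 0.422 (95% interval 0.78 to 2.61) and edgeR called it higher in Mael-/- (adjusted p = 0.0312 over 10112 features, of which 5.79% were called higher). The call was kept with upper-quartile scaling (1.73, edgeR adjusted p = 0.0201), TMM from transcripts only (1.66, edgeR adjusted p = 0.0382) and DESeq2 (1.55, DESeq2 adjusted p = 0.00558). It was lost with RLE size factors (1.55, edgeR adjusted p = 0.0687) and without the filter on low counts (1.64, edgeR adjusted p = 0.146). It was also lost without wild-type replicate a (1.74, edgeR adjusted p = 0.485) and without wild-type replicate b (1.54, edgeR adjusted p = 0.382), and was larger with library totals (3.09) and TMM from piRNA loci (3.08).

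For every 1000 counts at the longer entry, the shorter entry had 2.37 and 4.25 in Mael-/- replicates a and b, against 0.833 and 0.970 in wild-type replicates a and b, a 3.53-fold difference without overlap. The exact two-sided permutation p was 0.33, the smallest possible here, for a ratio that was chosen after seeing the data. In long RNA the shorter entry had 47 and 139 counts with anti-MAEL, against 90 with IgG, or 8.17 and 12.8 CPM against 11.6 CPM, so the antibodies overlapped. Its log2 fold change of anti-MAEL over IgG was 0.17 ± 0.361 (95% interval -0.64 to 0.98, edgeR adjusted p = 0.998, with 1.37% of 16350 features called higher), and it was -0.18 with library totals and -0.67 with TMM from piRNA loci. Set against the longer entry, the shorter one had 4.40 and 9.24 counts per 1000 with anti-MAEL and 56.8 with IgG. In the size-selected anti-MAEL libraries it was nearly absent, with 88 counts (0.0274 per 1000) at 15 to 50 nt and 20 counts (0.0571 per 1000) at 50 to 150 nt. Per kb the longer entry had 12.0 and 6.68 times the level of the shorter in Mael-/- replicates a and b, against 34.1 and 29.3 times in wild-type replicates a and b. The same ratio was 1035 and 497 in the 15 to 50 and 50 to 150 nt RIP, 6.46 and 3.08 in anti-MAEL long RNA and 0.50 in IgG long RNA. Among the 82 gene-named loci with over 1 entry, entries of unlike abundance were usual, though mostly less extreme. In wild-type small RNA the shorter entry had 0.0852% of the counts of the longer. The median for the least over the most abundant entry was 9.99% in those 82 loci. Of all 151 loci with over 1 entry, 5 had a lower value than pi-D10Wsu102e. The locus at rank 76 from the lowest had 43.7%.

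The loci whose profile over the 9 libraries was most like that of pi-D10Wsu102e were, by Pearson's r of log2(CPM + 0.5), 13-qA5-464 (0.993), 10-qC1-875 (0.982), 15-qD1-4001 (0.969), 14-qA3-284 (0.962) and pi-Zfp280b (0.961). These r are a description over libraries that fall into 3 kinds and share their totals. How much of them is the step between small RNA and long RNA was not tested. The closest, 13-qA5-464, had 25362 ± 1138 CPM in Mael-/- and 12688 ± 369 CPM in wild-type small RNA (SD, n = 2 each), a ratio of 2.0 against 2.11 for pi-D10Wsu102e. Its anti-MAEL over IgG ratio was 11.9, and its CPM in the 15 to 50 nt RIP was 0.515 times that in wild-type small RNA, where pi-D10Wsu102e had 1.14 times. The Mael-/- over wild-type ratio was likewise 2.0 at 14-qA3-284, but 1.04 at 10-qC1-875, 0.838 at 15-qD1-4001 and 1.29 at pi-Zfp280b, so a high r did not require the same genotype ratio.

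**Figure D5:**
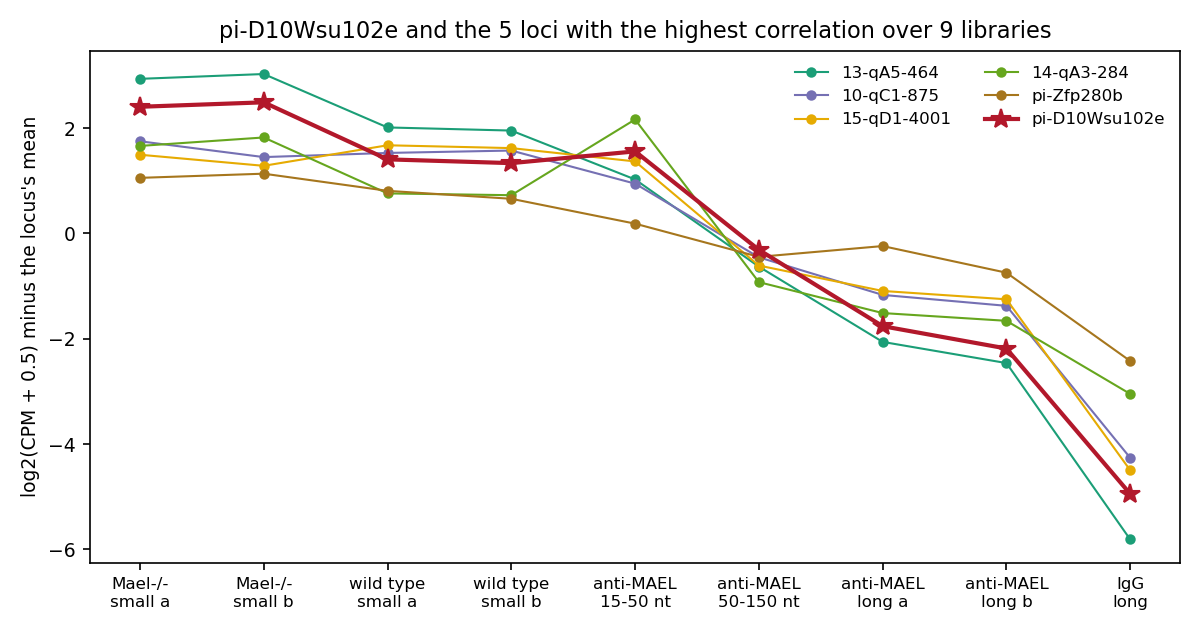
Log2(CPM + 0.5) of pi-D10Wsu102e (red stars) and of the 5 loci with the highest Pearson's r to it, each minus its own mean over 9 libraries, in small RNA (Mael-/- and wild type), the size-selected anti-MAEL RIP and the long-RNA RIP (anti-MAEL and IgG). All 6 loci are lowest in the IgG library. The loci pi-D10Wsu102e, 13-qA5-464 (r = 0.993), 14-qA3-284 and pi-Zfp280b are higher in both Mael-/- than in both wild-type libraries. This does not hold for the remaining loci shown.

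The gene D10Wsu102e lies on chromosome 10, as do 11 band-named loci, of which the 5 whose names begin with 10-qC1 were compared with it. The sources used here place neither the gene nor pi-D10Wsu102e in a band, so these 5 are not known to be its neighbours, and the others, of bands 10-qA3, 10-qB4, 10-qB5.1 and 10-qC2, were not compared. Their Mael-/- over wild-type CPM ratios were 2.09 at 10-qC1-1527, 1.32 at 10-qC1-2617, 1.04 at 10-qC1-875, 0.808 at 10-qC1-117 and 0.716 at 10-qC1-12816, against 2.11 at pi-D10Wsu102e. Their anti-MAEL over IgG ratios were 15.5, 18.0, 8.02, 1.46 and 7.31 in the same order, against 7.96. The locus 10-qC1-1527 came nearest in genotype ratio, with 5774 and 5166 CPM in Mael-/- replicates a and b, against 2493 and 2741 CPM in wild-type replicates a and b. By RefSeq order (GRCm38.p6) the nearest genes on the upstream side are Gm40723, Gm40722 and Slc41a2, the last a magnesium transporter gene, and on the downstream side Gm8270, Aldh1l2, a mitochondrial folate enzyme gene, and Gm51778. Whether any of these overlaps the locus, and how reads were then assigned, was not analysed.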

How the data were processed

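The deposited tables give a count of reads per feature and the feature's size for 9 libraries. Per the submitters' processing notes the authors used CASAVA 1.8, Bowtie2 2.0.6 and TopHat2 2.0.7 with the mm9 build; the counting rule, and how reads mapping to several places were treated, are not given in the sources used here. Of each locus's entries the one with most counts was kept. This choice was made separately over the small RNA libraries, over the long-RNA libraries and in each size-selected RIP library. For pi-D10Wsu102e it was always the longer entry. At other loci the entry kept can differ between these sets, which bears on ratios and correlations across them. CPM was taken over that basis. Differences were tested with edgeR 4.0.16 (quasi-likelihood, TMM, filterByExpr, genotype or antibody as the term, Benjamini-Hochberg over all features, threshold 0.05) on the 4 small RNA or 3 long-RNA libraries. DESeq2 1.42.0, other scalings, filters, entry choices and left-out libraries were alternatives. The fits were also run on simulated counts of fixed spread. Those counts lacked the composition differences seen between these libraries, so they do not bear on the scaling. Replicates differed by more than sampling noise (chi-square per degree of freedom 12.0 to 51.5). Loci were named by rule: the locus, the 5 gene-named loci next in wild-type counts, its 4 neighbours in that order, the 5 highest in correlation, and those of band 10-qC1. The locus, rules and lists were chosen with earlier results of these data known. Library depth limits precision. The edgeR intervals include the spread between libraries, and the Clopper-Pearson interval covers counting error only, since reads are not independent molecules. The mRNA and footprint tables list no piRNA loci and were not used.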

Additional observations from a re-analysis of the deposited data

How the results depend on the processing

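The log2 fold change of pi-D10Wsu102e in Mael-/- over wild-type small RNA kept its sign and stayed uncalled under 8 of 10 other settings and turned to 1.08 with library totals and 1.06 with TMM from piRNA loci only, both called. Leaving out 1 library gave values between -0.79 (without Mael-/- replicate a) and 0.33 (without Mael-/- replicate b, reversed), with 0.06 without wild-type replicate a (also reversed), a lone library being taken to vary like the pair it was set against. Features called in this comparison numbered 732, against 2589 with library totals, 2737 with TMM from piRNA loci only and 481 without a filter, and 78 to 1895 with 1 library left out. The share of calls that were higher was 52.1% with TMM, 94.6% with library totals, 95.2% with TMM from piRNA loci only and 39.4% with RLE.

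A replicate block by the letters a and b, which share only a letter in the labels, was also fitted. It gave -0.14 (edgeR adjusted p = 0.882) for the locus and 1.68 for the shorter entry (edgeR adjusted p = 3.28e-14). Features called numbered 4072 of 9906, with 2318 higher and 1754 lower. Of the 99 band-named loci 79 were called lower. Same-letter deviations correlated at 0.72 over 3472 features.

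For the shorter entry, added after seeing the data, Mael-/- over wild type was 1.55 with RLE and 1.64 unfiltered, both no longer called. The shorter entry had 1.55 with DESeq2, still called (adjusted p = 0.00558), and 1.47 to 1.75 with 1 library left out. Its anti-MAEL over IgG value reversed to -0.18 with library totals and to -0.67 with TMM from piRNA loci only.

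For anti-MAEL over IgG the locus had 3.39 without a filter and 3.41 with DESeq2, both called, and 2.81 to 3.86 with 1 anti-MAEL library left out, where no test is possible. The 206 features called there became 101 with library totals, 323 with RLE, 315 with upper-quartile scaling, 0 with TMM from piRNA loci only (2074 at an unadjusted p under 0.05), 670 without a filter and 350 with DESeq2; 1225 had an unadjusted p under 0.05 with TMM by edgeR. No count with 1 library left out could be had.

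With the sum over all entries of each locus, the share of gene-named counts was 46.8% in Mael-/- and 31.2% in wild type, and of all counts 2.06% and 0.902%. Ranking likeness by root mean square difference kept 3 of the 5 loci. The cause was not tested for any of these changes except where stated.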
